A study of Mus musculus with 4 samples.

Results

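The 10 genes described here encode enzymes that make or use arginine, ornithine and agmatine: Arg1, Arg2, Agmat, Nos2, Gatm, Oat, Otc, Aldh18a1, Ass1 and Asl. They were chosen by name, and the platform annotation of the Affymetrix Mouse Gene 1.1 ST array pairs them with 12 of 23099 named probe sets. For 8 of the 10 genes a probe set names that gene alone and gives it a value of its own, among 18820 genes with such a value. The other two share their probe sets, Arg2 with Vti1b (2 probe sets) and Ass1 with Gm5424 (2 probe sets), so that these 4 probe sets cannot be assigned to 1 gene. RNA came from whole testes of adult mice of 2 genotypes, Azin2 Knock out (KO) and Azin2 Wild type (WT), hybridized to 2 arrays per genotype, each with RNA pooled from 3 mice. The KO mice were homozygous for a β-Geo cassette inserted within Azin2, on a C57BL/6 mixed background. The cassette leaves a truncated Azin2 fused to lacZ under the Azin2 promoter, so that these mice are not a deletion of the whole gene. The genetic background of the WT mice is not given apart from that of the KO line in the sources used here, and neither group received a treatment.

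Arginine is the entry to several routes. Arginases split it into urea and ornithine, nitric oxide synthases turn it into nitric oxide and citrulline, and the amidinotransferase GATM starts creatine synthesis from it. Ornithine is the substrate of ornithine decarboxylase, which makes putrescine, the first polyamine, and agmatine, the decarboxylation product of arginine, can be split by agmatinase into putrescine and urea. AZIN2, the antizyme inhibitor whose gene is disrupted here, resembles ornithine decarboxylase but lacks its activity. An older name of its gene, Adc, stood for arginine decarboxylase, but the paper describes AZIN2 as having no enzymatic activity. The comparison of KO with WT testes asks whether the mRNAs of the enzymes that supply ornithine and handle agmatine differ when Azin2 is disrupted.

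The targeted gene followed the labels. Azin2 had a normalized log2 signal of 7.36 in KO replicate 1 and 7.14 in KO replicate 2, against 10.16 in WT replicate 1 and 9.998 in WT replicate 2. The difference of -2.83 on the log2 scale (SE 0.10) had an adjusted p of 0.0250 by limma. Without WT replicate 1 its adjusted p was 0.294, and without WT replicate 2 it was 0.232. Median signals were even over the arrays, from 6.08 to 6.11. All 7 spermatid marker genes and all 10 Sertoli cell marker genes lay above the median signal of every array, and all 4 epididymis genes measured lay below it. The values are RMA log2 signals, in which a difference of 1 is a doubling, and the signals of different probe sets are not levels that can be ranked against each other. No file gave a call of presence, so that a signal below the array's median may be near background.

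By limma, none of the 8 enzymes with a value of its own passed an adjusted p of 0.05 between KO and WT testes, where 0.00433% of all named probe sets passed. At an unadjusted p of 0.05, 0 of the 8 passed, against 4.10% of all named probe sets, and the ordinary equal-variance test also called 0 at either threshold. Their differences, KO minus WT, ran from -0.067 for Arg1 to 0.094 for Aldh18a1 on the log2 scale, 4 above 0 and 4 below. Of all 18820 genes, 10654 were above 0 and 8166 below. The median of the 8 was -0.0049, beside 0.011 over all genes. The median size of the difference, without its sign, was 0.020 for the 8 and 0.046 for all genes. Arg1, Agmat, Otc, Nos2 and the dimmer probe set of Arg2 and Vti1b were below the median signal of every array. If such a signal is near background, a small difference or a narrow interval does not bound a change of the mRNA. In 7 of the 8, the gap between the KO pools or between the WT pools was larger than the difference between the genotypes, as it was in 79.0% of all genes. The exception was Arg1, the only enzyme of the 8 whose KO and WT pools did not overlap, with KO lower. That pattern was found in 12.3% of all named probe sets. The opposite, KO pools above WT pools without overlap, was found in 0 of the 8 and in 20.1% of all named probe sets. With the study's criteria of a 1.5-fold change and an unadjusted p below 0.05, 0 of the 8 passed, against 0.0823% of all named probe sets. Of the 12 probe sets, shared ones included, 0 passed at an unadjusted or an adjusted p of 0.05 by limma, and all 12 had a 95% interval within a fold of 1.5 in either direction, as did 97.8% of all named probe sets. With 2 pools against 2, an exact permutation test cannot give a two-sided p below 0.333, so that the tests rest on limma's sharing of spread between probe sets.

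**Figure D1:**
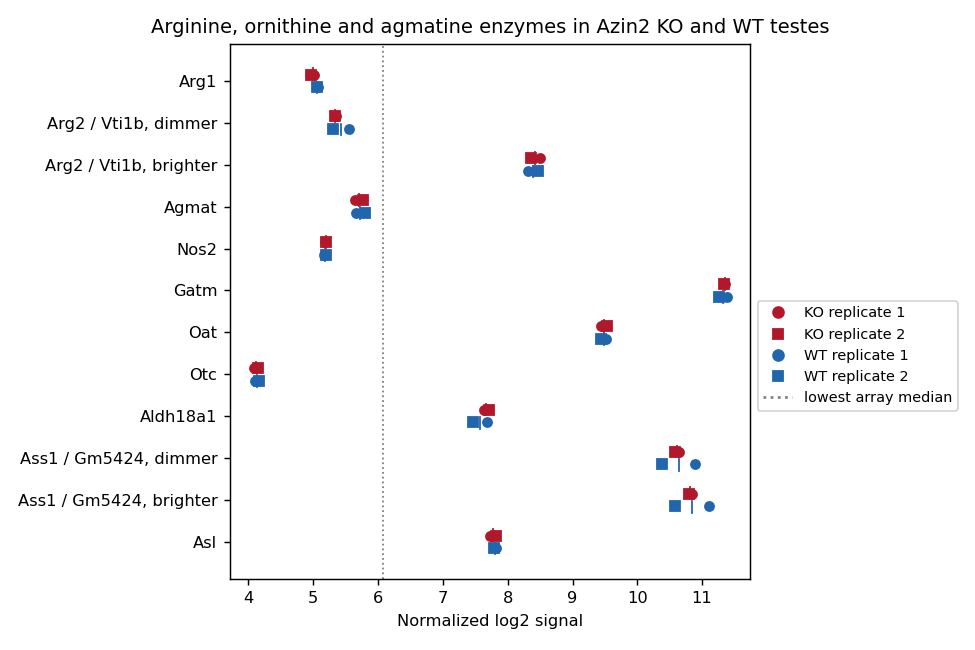
Normalized log2 signal (horizontal axis) of the 12 probe sets of the 10 enzymes, with 1 point for each array (KO red, WT blue, circles for replicate 1 and squares for replicate 2) and short lines for the means of 2 arrays. The KO and WT points lie close together for each probe set, and the widest gap is that between the WT points of Ass1, at 11.10 and 10.58 in the brighter of its probe sets.

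Arg1 and Arg2 encode the cytosolic and the mitochondrial arginase. Arg1, which is abundant in liver and in some macrophages, had a log2 signal of 5.01 and 4.97 in the KO pools and 5.07 and 5.05 in the WT pools. Neither KO pool reached the lower of the WT pools, but the genotypes were only 0.067 apart (log2 difference -0.067, SE 0.05, unadjusted p = 0.234 by limma). The 95% interval of the KO to WT ratio ran from 0.875 to 1.04. All 4 arrays were below their median signal at this probe set. Of 9 macrophage markers, 7 were below 0, with a median log2 difference of -0.15 over the list. The same sign was found for 6 of 6 Leydig cell markers with a value and for 6 of 7 endothelial markers. Of all 18820 genes, 8166 were below 0. None of the 9 passed the test, and only Cd14 separated the genotypes, with KO higher. The mean signal of the 9 genes in the KO pools was 6.81 and 7.09, and in the WT pools it was 6.92 and 7.17, so that the genotypes overlapped. That mean was lowest in KO replicate 1 and highest in WT replicate 2, whereas Arg1 was lowest in KO replicate 2 and highest in WT replicate 1. The part of macrophage RNA in the Arg1 values was not tested. In RNA from whole testes, fewer cells of a type and less RNA per cell cannot be told apart.

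Arg2 had no value of its own. Its gene and Vti1b, a SNARE protein gene of vesicle transport, overlap by 285 bases at their ends on chromosome 12 in GRCm38.p6, and both probe sets that name Arg2 also name Vti1b. In the dimmer of the pair, the KO pools were at 5.35 and 5.33 and the WT pools at 5.56 and 5.31. WT replicate 1 stood above the other 3 arrays, and the difference was -0.093 (SE 0.09, unadjusted p = 0.362 by limma). Without WT replicate 2 it was -0.22, and without WT replicate 1 it was 0.032. In the brighter, the KO pools were at 8.49 and 8.36 and the WT pools at 8.31 and 8.46, which overlapped, and the difference was 0.041 (SE 0.08, unadjusted p = 0.631 by limma). The probe sets thus differed in the sign of a difference that neither separated from 0.

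Agmat encodes agmatinase, which splits agmatine into putrescine and urea. Its KO pools were at 5.65 and 5.77 and its WT pools at 5.65 and 5.80. Replicate 1 of either genotype was lower than replicate 2, by 0.12 in KO and 0.15 in WT, and the genotypes overlapped almost completely. The log2 difference was -0.017 (SE 0.08, unadjusted p = 0.832 by limma), with a 95% interval of the ratio from 0.861 to 1.13. The signal was below the median of every array. Agmat is the only gene of the 10 on chromosome 4, where Azin2 lies, and the genes are 12.8 Mb apart in GRCm38.p6.

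The other two enzymes that take arginine are an inducible synthase and an amidinotransferase. Nos2, the inducible nitric oxide synthase of activated macrophages, had the closest values of the 10 genes, at 5.18 and 5.20 in the KO pools and 5.17 and 5.19 in the WT pools. The difference of 0.013 (SE 0.05, unadjusted p = 0.792 by limma) had an interval of the ratio from 0.926 to 1.1002, and the signal was below the median of every array. Gatm encodes the enzyme that joins the amidino group of arginine to glycine, which releases ornithine and leads to creatine. Its bright probe set was at 11.36 and 11.33 in the KO pools and at 11.38 and 11.27 in the WT pools, so that both KO pools lay between the WT pools. The log2 difference was 0.024 (SE 0.06, unadjusted p = 0.708 by limma), and the ratio had a 95% interval from 0.914 to 1.13.

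Among the genes that handle ornithine, Oat encodes the mitochondrial ornithine aminotransferase, which links ornithine with glutamate and proline. Its KO pools were at 9.44 and 9.53 and its WT pools at 9.51 and 9.45. KO replicate 1 was the lowest and KO replicate 2 the highest of the 4 arrays, and the genotypes differed by 0.0050 (SE 0.06, unadjusted p = 0.934 by limma), the smallest difference of the 8. Otc encodes ornithine transcarbamylase, the urea cycle enzyme of liver and intestine that makes citrulline. Its signal was low in all arrays, at 4.08 and 4.15 in the KO pools and 4.10 and 4.16 in the WT pools, with a difference of -0.015 (SE 0.05, unadjusted p = 0.798 by limma). Cps1, which makes the carbamoyl phosphate that Otc uses, was also below the median of every array, at 5.37 and 5.09 in the KO pools and 5.12 and 5.46 in the WT pools.

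Aldh18a1 encodes the synthase of pyrroline-5-carboxylate, from which proline and ornithine are made. It had the largest difference of the 8, with KO pools at 7.63 and 7.70 and WT pools at 7.68 and 7.46. WT replicate 2 stood below the other 3 arrays, and WT replicate 1 lay between the KO pools. The log2 difference was 0.094 (SE 0.09, unadjusted p = 0.335 by limma), and the interval of the ratio ran from 0.912 to 1.248, the widest of the 8. Against WT replicate 2 alone the difference was 0.20, and against WT replicate 1 alone it was -0.017.

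**Figure D2:**
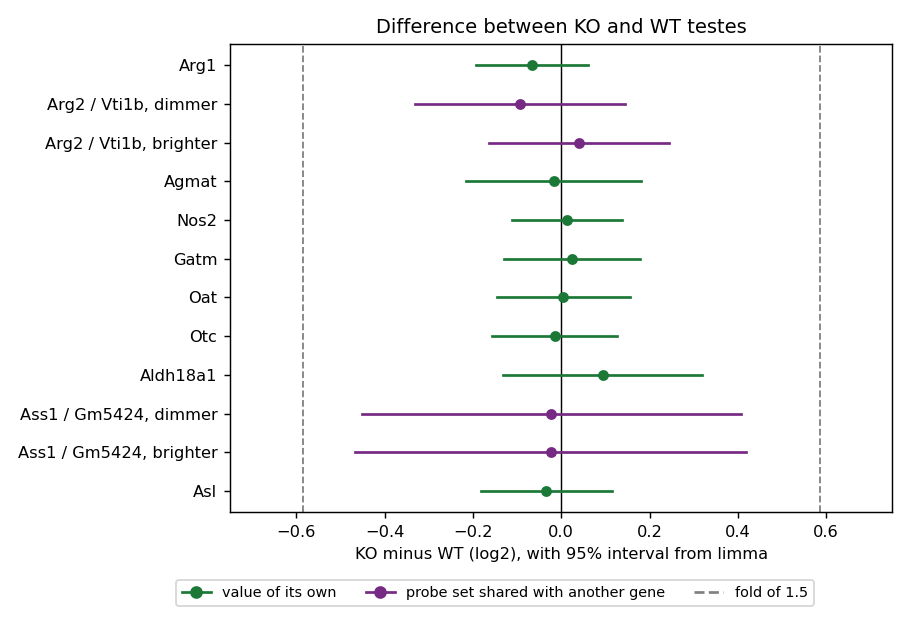
Difference KO minus WT on the log2 scale (horizontal axis) for the 12 probe sets, with 95% intervals from limma, in green for genes with a value of their own and in purple for probe sets shared with another gene. Each interval includes 0 and lies inside the dashed lines at a fold of 1.5, and the shared probe sets of Ass1 have the widest.

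Ass1 and Asl encode argininosuccinate synthase and lyase, which turn citrulline and aspartate back into arginine. Both Ass1 probe sets also name Gm5424, a transcribed pseudogene on chromosome 10 according to RefSeq, whereas Ass1 is on chromosome 2. The brighter probe set was at 10.84 and 10.79 in the KO pools and at 11.10 and 10.58 in the WT pools. The WT pools lay on either side of the KO pools and differed from each other by 0.52, a gap reached by 0.537% of all named probe sets. The other probe set was at 10.65 and 10.58 in the KO pools and at 10.89 and 10.39 in the WT pools. The first stood above it by 0.19 to 0.21 in each of the 4 arrays, so that both gave the same pattern over the arrays, and whether they share probes was not examined. The difference between the genotypes was -0.024 (SE 0.17, unadjusted p = 0.893 by limma) for the first and -0.022 (SE 0.17, unadjusted p = 0.898 by limma) for the second. The WT pools gave opposite signs when taken alone. Without WT replicate 1 the difference of the first probe set was 0.23, and without WT replicate 2 it was -0.28. The 95% interval of its ratio, from 0.724 to 1.34, was wider than that of any of the 10 enzyme probe sets that do not name Ass1. Asl had a value of its own, with KO pools at 7.72 and 7.82 and WT pools at 7.82 and 7.79. Its difference was -0.034 (SE 0.06, unadjusted p = 0.583 by limma), and the WT pools, 0.027 apart, did not show the gap seen at Ass1.

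The pools thus differed among themselves in ways that the genotype did not follow. WT replicate 2 was the lowest of the 4 arrays at 5 of the 12 enzyme probe sets (41.7%, against 30.2% of all named probe sets): both of Ass1, the dimmer of Arg2 and Vti1b, Gatm and Aldh18a1. WT replicate 1 was the highest at 5 (20.3% of all named probe sets), namely those of Ass1, the dimmer of Arg2 and Vti1b, Arg1 and Gatm. KO replicate 1 was the lowest at 4 (21.7% of all named probe sets), those of Agmat, Oat, Otc and Asl. The 12 include both probe sets of Ass1, which gave the same pattern. Among the 8 enzymes with a value of their own, WT replicate 2 was the lowest at 2, 25% against 30.1% of all genes. WT replicate 1 was the highest at 2 of the 8 (20.4% of all genes), and KO replicate 1 the lowest at 4 (22.1% of all genes). Marker lists of testis cells also differed between pools. Relative to the mean over the 4 arrays, Sertoli cell markers stood at -0.096 in WT replicate 2 and at 0.033 in WT replicate 1, and spermatogonia markers at -0.094 and 0.073. Leydig cell markers, of which 6 of 8 were measured, stood at -0.17 in KO replicate 1 and between -0.020 and 0.10 in the other arrays. Macrophage markers had the widest spread of these lists and ran the other way in WT, at 0.17 in WT replicate 2 and -0.078 in WT replicate 1, with -0.19 in KO replicate 1 and 0.095 in KO replicate 2. Spermatid markers varied least, from -0.010 to 0.014. No marker gene of any list passed an adjusted p of 0.05 by limma, and the part of cell composition in the gaps of Ass1 and Aldh18a1 was not tested.

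**Figure D3:**
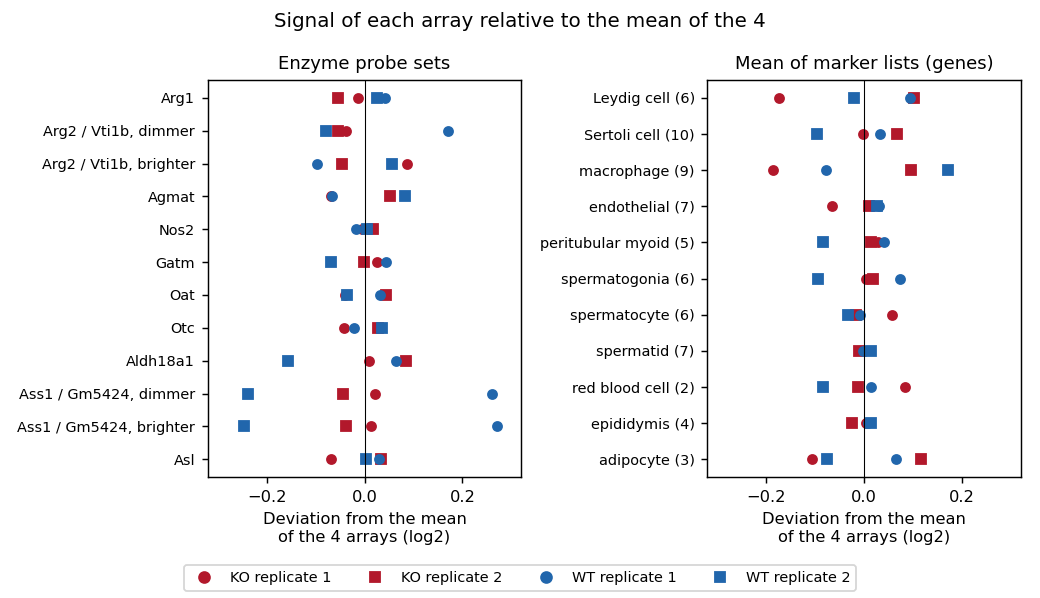
Signal of each array minus the mean of the 4 arrays on the log2 scale (horizontal axes), for the 12 enzyme probe sets on the left and for the means of marker lists of testis and neighbouring cells on the right, with the number of genes measured in brackets. WT replicate 1 and WT replicate 2 stand on opposite sides at both Ass1 probe sets, and WT replicate 2 is lowest for Sertoli cell and spermatogonia markers and highest for macrophage markers.

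The reactions and transporters around these enzymes were measured by 36 of 43 genes listed, of which 1, Azin2, passed an adjusted p of 0.05 by limma. Of 5 genes at the exits of ornithine and agmatine, ornithine decarboxylase (Odc1) was at 10.83 and 10.79 in the KO pools and 10.81 and 10.83 in the WT pools, and its difference was -0.013 (SE 0.05, unadjusted p = 0.797 by limma). A second, dimmer probe set of Odc1 had a difference of -0.048. Azin1, the paralogous antizyme inhibitor, was at -0.064, the diamine oxidase gene Aoc1 at 0.027 and the spermidine synthase gene Srm at 0.055, and none of these 4 passed the test.

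Of 12 transporters of arginine and ornithine, 10 had a value of their own and 0 passed an adjusted or an unadjusted p of 0.05 by limma. They ran from -0.030 for Slc25a15, the mitochondrial ornithine carrier, to 0.22 for Slc25a2, its paralogue, with a median of 0.011. The difference of Slc25a2 rested on KO replicate 1, at 10.47, as the other 3 arrays were between 9.90 and 9.9997. Slc7a3, a cationic amino acid transporter, was at 0.080, and Slc3a2, the heavy chain of several amino acid exchangers, at -0.014. Slc7a2, the cationic amino acid transporter of macrophages and liver, was at 7.44 and 8.27 in the KO pools and 7.76 and 7.83 in the WT pools. This gap between KO pools left an interval that reached a fold of 1.69, so that a moderate change of Slc7a2 was not detectable with these arrays.

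Of 10 other genes of the urea cycle and of nitric oxide, 8 were above 0 and 2 below, with a median of 0.054. Of all 18820 genes, 10654 were above 0 and 8166 below. Of the 10 listed, 0 passed an adjusted or an unadjusted p of 0.05 by limma. The largest were Ddah2 (0.15) and the neuronal nitric oxide synthase Nos1 (0.097). The lowest were Spr (-0.094), of the synthesis of tetrahydrobiopterin, the synthases' cofactor, and Cps1 (-0.061). The endothelial synthase Nos3 was at 0.050. For creatine, 5 of 6 genes were above 0 with a median of 0.064. Ckm, the muscle creatine kinase, had an unadjusted p of 0.0308 by limma, but its adjusted p was 0.9995. Its KO pools were at 6.25 and 6.12 and its WT pools at 5.996 and 5.999, below the median of their arrays. Of the 36 pathway genes, 2 (Ckm and Azin2) had an unadjusted p under 0.05 by limma, against 4.10% of all named probe sets. The brain creatine kinase Ckb was at 0.10, while Ckmt1, a mitochondrial creatine kinase, was at -0.091, and Gamt, which completes creatine synthesis after GATM, was at 0.055.

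Of 10 enzymes of proline and glutamate, 5 had a value of their own, with a median of -0.050, and 0 passed an adjusted or an unadjusted p of 0.05 by limma. Glud1, the glutamate dehydrogenase, was at -0.070 and Glul, the glutamine synthetase, at -0.063. Prodh, the proline dehydrogenase, was at 0.069, and Aldh4a1, which acts after it and after OAT, was at 0.00026.

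**Figure D4:**
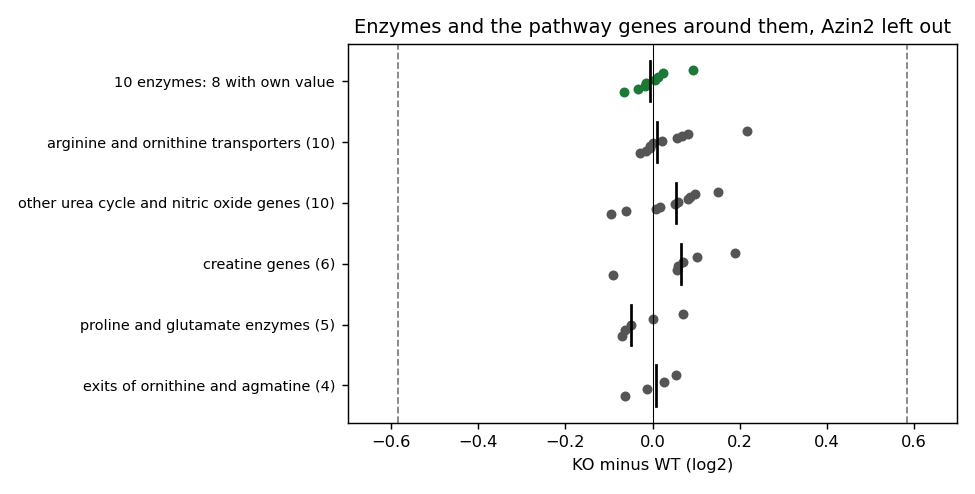
Difference KO minus WT on the log2 scale (horizontal axis) of the 8 enzymes with a value of their own (green) and of 35 pathway genes in 5 lists (grey), with Azin2 left out. A point stands for 1 gene, a black bar for a list's median, and the dashed lines show a fold of 1.5, which no gene reaches.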

How the data were processed

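Testis RNA of adult KO and WT mice was measured on 4 arrays, 2 for each genotype. The authors deposited log2 signals per probe set, made with RMA, and the submitters' processing notes also name Partek 6.13.1224. The paper describes amplified cDNA on the Mouse Gene 1.1 ST array, whereas the labels describe cRNA from a 3' labelling kit, and which was used was not settled here. The build is not given in the sources used here. Gene names came from the platform annotation, with symbols updated by gene identifier (20508 of 20557 matched RefSeq, GRCm38.p6). Of 35556 probe sets, 21218 had 1 symbol, 1881 several and 12457 are unnamed here. Probe sets with several symbols give no gene a value. For a gene with several probe sets, that with the highest mean was used.

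KO was compared with WT with limma 3.58.1 in R 4.3.3 (lmFit and eBayes, no filter) over the 23099 named probe sets, with Benjamini-Hochberg adjustment over all of them and intervals at 95%. The prior had 2.96 degrees of freedom. The script was tested on simulated data (10 sets). Nothing states that the pools came from separate litters or days, so that p-values measure the spread between these pools, and the number of arrays limits the precision. The enzymes, the pathway and marker lists and the tests were chosen with earlier results of these data known. The text names the 10 enzymes, Azin2, Odc1 and, of each pathway list, the 2 largest differences in each direction. Slc7a2, Nos3, Gamt and Cd14 were named for their role or after their values were seen. Alternatives changed the variance model (eBayes with a trend, plain or robust), the test (ordinary equal-variance), the scaling (quantile, or medians set equal), the probe sets (only bright ones, or the whole table with unnamed ones), the gene value (mean of its probe sets), the arrays (each left out), the thresholds (those of the study), or added a replicate block. Python 3.11.15 with matplotlib 3.10.9 drew the figures.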

Additional observations from a re-analysis of the deposited data

How the results depend on the processing

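The count of enzymes past an adjusted p of 0.05 was 0 under each alternative run, and 4 of the 8 were left when dim probe sets were filtered out. With no array left out, the count at an unadjusted p under 0.05 was 0 under each alternative. In the main fit 4.10% of all named probe sets passed. Without WT replicate 1 the difference was 0.20 for Aldh18a1 and 0.23 for both Ass1 probe sets. Without WT replicate 2 these differences were -0.017, -0.28 and -0.27, and the dimmer probe set of Arg2 and Vti1b was at -0.22. Among the 36 pathway genes the count past an adjusted p of 0.05 was 1, Azin2, and 0 when the ordinary equal-variance test was used or when unnamed probe sets were tested too. The log2 difference of Azin2 was -2.83 in both, with adjusted p of 0.868 and 0.0707. With each array left out in turn, where the single array of a genotype is assumed to vary like the other genotype, that count ranged from 0 to 1, the difference of Azin2 from -2.94 to -2.72, and the median of the enzymes from -0.041 to 0.022.

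Of the differences of the 8 enzymes, the 4 shared probe sets and Odc1 (13 in all), 11 changed sign when an array was left out and 0 under any other alternative; Arg1 and Nos2 kept theirs. The ranges were -0.092 to 0.057 for Agmat, -0.037 to 0.047 for Oat, -0.049 to 0.019 for Otc, -0.085 to 0.017 for Asl, -0.033 to 0.080 for Gatm, -0.017 to 0.20 for Aldh18a1, -0.031 to 0.0051 for Odc1, -0.22 to 0.032 and -0.035 to 0.12 for the probe sets of Arg2 and Vti1b, and -0.28 to 0.23 and -0.27 to 0.23 for those of Ass1 and Gm5424. The lowest adjusted p of these 13 under any alternative was 0.920. Arrays with the same replicate number did not deviate together (correlation -0.082 over named probe sets), and with the replicate number as a block the count of enzymes past an adjusted p of 0.05 was 0 and the difference of Azin2 was -2.83.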
